A study of Mus musculus with 6 samples.

Results

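The 40 genes described here belong to the programme of meiosis and spermatogenesis, and were picked by symbol from the 55536 Ensembl genes of the count table. All 40 symbols matched a row of the table. They were divided by role into 8 groups, which hold 7 synaptonemal complex genes, 2 genes for HORMA-domain proteins of the chromosome axis, 8 recombination genes, 3 genes for the germ cell bridge and surface, 5 germ cell RNA-binding genes, 6 germ cell transcription and chromatin genes, 1 sperm mitochondrial carrier and 8 genes of the CatSper channel.

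Basal keratinocytes, the proliferating layer of the epidermis, had been sorted as Epcam+ α6+ cells from the dorsal skin of E16.5 mouse embryos and profiled by bulk RNA-seq in 3 Ctrl and 3 TKO libraries. Embryos of both groups carried floxed *Suv39h1* (Suv39h1 f/f), floxed *Setdb1* (Setdb1 f/f) and a constitutive loss of *Suv39h2* (Suv39h2-/-), and both were exposed to tamoxifen. The TKO embryos also carried K14CreERT2, a tamoxifen-dependent recombinase driven by the keratin 14 promoter of basal keratinocytes, which the Ctrl embryos lacked. The comparison asked what changed when *Suv39h1* and *Setdb1*, which write the repressive histone mark H3K9me3, were deleted in cells that already lacked *Suv39h2*. The study lists the litters behind these libraries as mosaic, so cells without recombination can be present in a TKO library. The labels give female sex for Ctrl replicate 1 and TKO replicate 2, and male sex for the other 4. Nothing in the labels says how many embryos gave each library.

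The Ctrl libraries held 102159175, 136515436 and 104422632 counts for replicates 1, 2 and 3, and the TKO libraries 116308383, 108957256 and 118413082, and values below follow this order. Levels are given as CPM, the count over the TMM-scaled library size in units of 1000000 counts. A count of 3 was taken as the smallest detectable level, which came to between 0.0232 and 0.0303 CPM. The limit covers counting error only. TKO replicate 3 stood apart from the other libraries. In a chi-square comparison of counts over genes, its statistic per degree of freedom was 157 against Ctrl replicate 3 and 410 to 525 against the other 4 libraries, while TKO replicates 1 and 2 were the closest pair. It also had the lowest share of counts on identifiers outside the annotation used here, 5.91%, with Ctrl replicate 3 the next at 9.09%. The part of these differences in the values below was not tested, and results that change without this library are given both ways.

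Meiosis is the pair of divisions that makes haploid gametes. In its prophase SPO11 cuts the DNA, DMC1 and its partners repair the breaks on the homologous chromosome, and the synaptonemal complex zips the homologues together. In the male, later steps build the sperm, including CatSper, the calcium channel of the sperm tail. Somatic cells keep many of these genes silent, by DNA methylation of their promoters and by repressors such as the E2F6 and PCGF6 complex, PRC1.6.

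The recombined genes were examined first. *Setdb1* was at 126, 118 and 121 CPM in Ctrl and at 95.3, 62.3 and 74.9 CPM in TKO. Every TKO library was below every Ctrl library, with a log2 fold change of -0.65 (SE 0.161) that did not pass the threshold (adjusted p = 0.286, edgeR). In bulk RNA, fewer cells with a transcript and less transcript per cell cannot be told apart, here and for every gene below. *Suv39h1* was at 88.7, 78.5 and 84.0 CPM in Ctrl and at 75.6, 68.9 and 89.4 CPM in TKO, and the groups overlapped. *Suv39h2* was at 15.9, 17.1 and 15.6 CPM in Ctrl and at 18.9, 16.0 and 17.5 CPM in TKO, and these also overlapped. Counts were per gene, so floxed and other exons could not be viewed apart, and all 3 genes overlap another gene on the opposite strand.

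Of the 40 germline genes, 37 had more than 3 counts in at least 1 library, 18 had that in all 6 libraries and 19 in some of them. With a stricter limit of 10 counts, 31 were detected in at least 1 library and 16 in all. *Spata22*, whose product binds single-stranded DNA during recombination, had 0 counts everywhere. *Syce3*, of the central element of the synaptonemal complex, and *Stra8*, which drives entry into meiosis, never exceeded 3 counts. The number of members over 3 counts was 29, 24 and 32 in the Ctrl libraries and 24, 26 and 27 in the TKO libraries, so TKO libraries did not hold more of them.

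**Figure D1:**
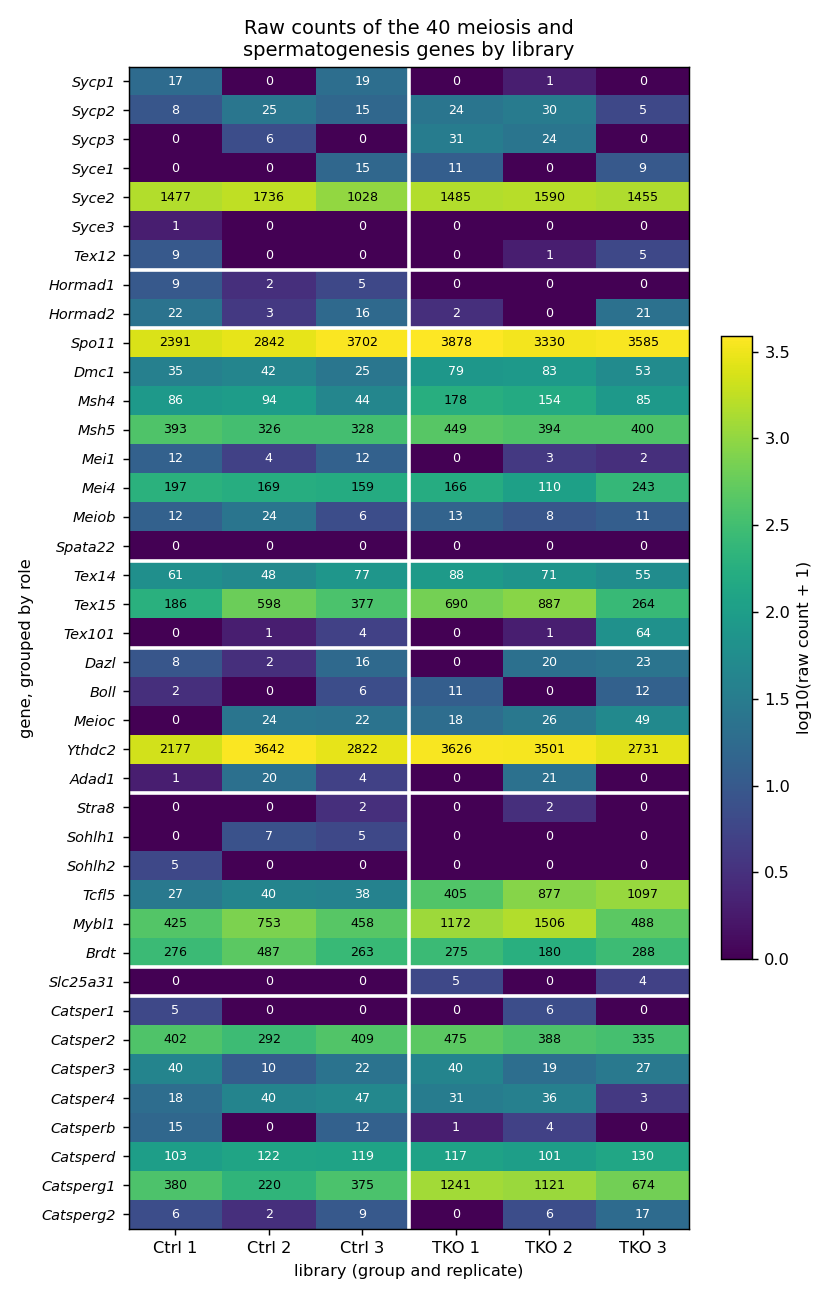
Raw counts of all 40 genes (rows, in the 8 role groups from synaptonemal complex at the top to CatSper channel at the bottom, separated by white lines) in the 3 Ctrl and 3 TKO libraries (columns), with the count printed in each cell and the colour on a log10(count + 1) scale. *Spo11*, *Ythdc2* and *Syce2* stand out with over 1000 counts in every library, and *Tcfl5* goes from 27 to 40 counts in Ctrl to 405 to 1097 in TKO.

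The low-count filter kept 22 of the 40 genes (55.0%), beside 37.1% of all genes in the table. Over the 20622 genes tested, edgeR called 27 higher (0.131%) and 0 lower (0%) in TKO, at an adjusted p below 0.05 and an absolute log2 fold change above 1. With TKO replicate 3 left out, edgeR called 65 higher and 16 lower. At an unadjusted p below 0.05, 837 genes were higher (4.06%) and 416 lower (2.02%). DESeq2 on the same genes called 193 higher (0.936%) and 21 lower (0.102%).

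Of the 22 tested germline genes, 1 was called higher, *Tcfl5*, and 0 were called lower. DESeq2 called 2 higher, *Tcfl5* and *Catsperg1*, and 0 lower. At an unadjusted p below 0.05 in edgeR, 3 were higher (*Tcfl5*, *Catsperg1* and *Mybl1*) and 0 were lower. Every TKO library stood above every Ctrl library for 3 genes, *Tcfl5*, *Catsperg1* and *Dmc1*, and below for *Brdt*, while the groups overlapped for the other 18. Among all tested genes 6.35% stood above in this way and 5.11% below. The log2 fold change was positive in 16 of the 22 and negative in 6, with a median of 0.16 beside 0.01 for all tested genes, of which 51.9% were positive. The low-count filter asked for its level in at least 3 libraries, whichever their group. *Meioc*, *Catsper3* and *Catsper4* each fell short of it in 1 library. *Dazl* and *Hormad2* reached it in only 3 libraries, from both groups, so their places in the tally and median were tied to the filter.

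**Figure D2:**
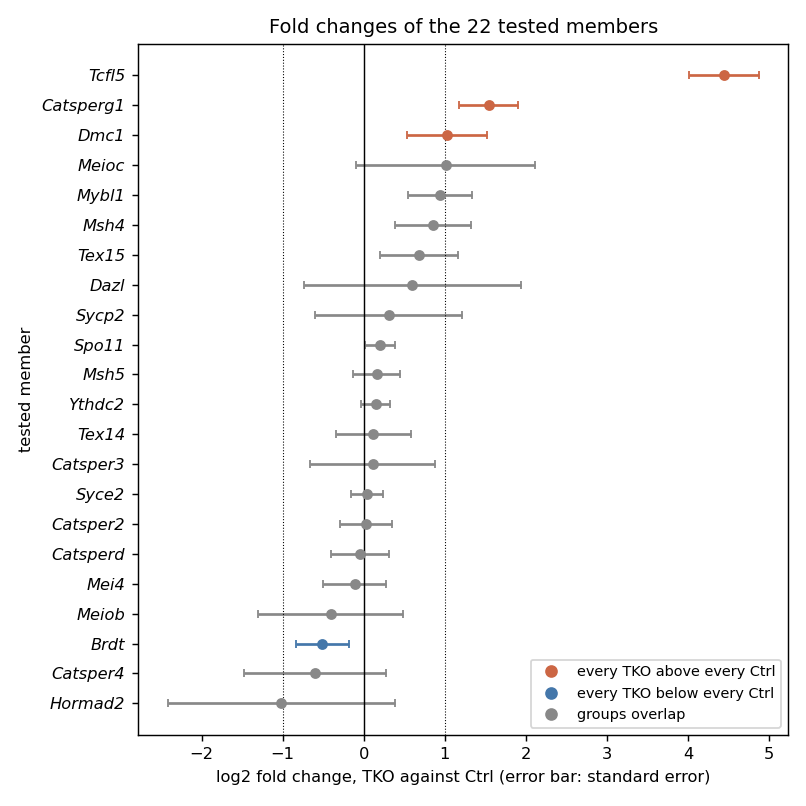
Log2 fold change of TKO against Ctrl (x axis) of the 22 tested genes (y axis, ordered by value), with the standard error as the bar and dotted lines at 1 and -1. *Tcfl5* lies at 4.44, apart from the rest, *Catsperg1* at 1.54 and *Dmc1* at 1.03, and the colours mark genes whose 3 TKO libraries all lie above or below the 3 Ctrl libraries.

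Among the 6 transcription and chromatin genes, *Tcfl5* (ENSMUSG00000038932, chr2:180263529-180284556, minus strand, GRCm39) encodes a basic helix-loop-helix factor that is best known from spermatocytes. It was at 0.273, 0.310 and 0.353 CPM in Ctrl and at 3.44, 7.94 and 9.02 CPM in TKO. Even the lowest TKO library was far above the Ctrl libraries, which lay close together. The mean went from 0.312 ± 0.0400 CPM to 6.80 ± 2.96 CPM (SD, n = 3 each), 21.8-fold. The log2 fold change was 4.44 (SE 0.434), with an adjusted p of 0.00461 in edgeR and 3.78e-26 in DESeq2. With any TKO library left out it was still called, whereas leaving out Ctrl replicate 1, 2 or 3 gave adjusted p-values between 0.0554 and 0.0715 in edgeR, at a log2 fold change within 4.18 to 4.75. *Tcfl5* shares 535 of its 8238 exon bases with *Col9a3*, a collagen gene on the other strand. *Col9a3* had 429, 195 and 272 counts in Ctrl and 203, 195 and 277 in TKO, and no TKO library exceeded the highest Ctrl library.

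The stretch upstream of the *Tcfl5* start is shown because this was the member that passed the test. Positions are in GRCm39, the sequence is that of RefSeq (GRCm38.p6 table) and is unchanged between the builds, and capitals mark GGCGGGA, letters of the type bound by E2F6. The last 4 bases lie inside an annotated exon.
*Tcfl5*, chr2:180284553-180284734, minus strand: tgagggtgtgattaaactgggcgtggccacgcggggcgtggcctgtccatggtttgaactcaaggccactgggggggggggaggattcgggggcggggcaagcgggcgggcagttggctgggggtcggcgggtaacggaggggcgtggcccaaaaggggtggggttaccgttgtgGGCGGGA
The whole 250-base window before the start held 22 CpG dinucleotides, beside a median of 6.0 over 32851 such windows.

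*Mybl1* (ENSMUSG00000025912, chr1:9737632-9770628, minus strand), which encodes A-MYB, the factor that switches on pachytene genes in spermatocytes, was at 4.29, 5.83 and 4.25 CPM in Ctrl and at 9.96, 13.6 and 4.01 CPM in TKO. TKO replicates 1 and 2 were above all Ctrl libraries and TKO replicate 3 was below them all. The log2 fold change was 0.94 (SE 0.391) and did not pass (adjusted p = 0.778, edgeR). Its fold change ranged from 0.54 to 1.30 on the log2 scale when single libraries were left out.

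*Brdt* (ENSMUSG00000029279, chr5:107479024-107534926, plus strand) encodes the testis bromodomain protein, a reader of acetylated histones in spermatocytes and spermatids. It was at 2.79, 3.77 and 2.44 CPM in Ctrl and at 2.34, 1.63 and 2.37 CPM in TKO. The TKO libraries lay below the Ctrl libraries, by a narrow gap between 2.37 and 2.44 CPM. The Ctrl mean was 3.0 ± 0.689 CPM and the TKO mean 2.11 ± 0.417 CPM (SD, n = 3 each), and the log2 fold change of -0.51 (SE 0.324) did not pass (adjusted p = 1, edgeR). The other 3 genes of the group are *Stra8*, *Sohlh1* and *Sohlh2*, of which the *Sohlh* pair encodes factors of early germ cell differentiation. None was tested, and the highest count among them was 7, for *Sohlh1* in Ctrl replicate 2.

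The CatSper channel has 4 pore subunits, *Catsper1* to *Catsper4*, and auxiliary subunits such as those encoded by *Catsperb*, *Catsperd*, *Catsperg1* and *Catsperg2*. *Catsperg1* (ENSMUSG00000049676, chr7:28880746-28913460, minus strand) was at 3.84, 1.70 and 3.48 CPM in Ctrl and at 10.5, 10.2 and 5.54 CPM in TKO. All TKO libraries were above all Ctrl libraries, with TKO replicate 3 the nearest to them. The mean went from 3.01 ± 1.14 CPM to 8.75 ± 2.78 CPM (SD, n = 3 each), 2.91-fold. The log2 fold change of 1.54 (SE 0.367) did not pass in edgeR (adjusted p = 0.246), and passed in DESeq2 (adjusted p = 0.00199).

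*Catsperg2* is a near copy of *Catsperg1*. Of all 50-base stretches in their transcripts, 3509 were common to both, which is 43.0% of those of *Catsperg1* and 44.1% of those of *Catsperg2*. Reads that lie wholly within such stretches could come from either gene, and how the counting treated them is not given in the sources used here, so the split between them may be uncertain. *Catsperg2* had 6, 2 and 9 counts in Ctrl and 0, 6 and 17 in TKO, and was not tested.

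No other CatSper gene separated the groups. *Catsper2* was at 4.06, 2.26 and 3.79 CPM in Ctrl and at 4.04, 3.51 and 2.75 CPM in TKO, with a log2 fold change of 0.03 (SE 0.321). *Catsperd* varied little, from 0.944 to 1.10 CPM in Ctrl and from 0.915 to 1.07 CPM in TKO, with a log2 fold change of -0.05 (SE 0.360). *Catsper3* and *Catsper4* had between 3 and 47 counts, and log2 fold changes of 0.11 (SE 0.771) and -0.60 (SE 0.874). *Catsper1*, which had no more than 6 counts in any library, was not tested. *Catsperb* was not tested either, with 15, 0 and 12 counts in Ctrl and 1, 4 and 0 in TKO. For the 5 tested CatSper genes the median was 0.03 on the log2 scale.

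Among the 8 recombination genes, 6 were tested, 0 were called by edgeR or DESeq2 or had an unadjusted p below 0.05, and the median log2 fold change was 0.18. *Dmc1* (ENSMUSG00000022429, chr15:79445691-79489351, minus strand), the meiosis-specific recombinase that pairs broken DNA with the homologue, was at 0.353, 0.325 and 0.232 CPM in Ctrl and at 0.671, 0.752 and 0.436 CPM in TKO. All 3 TKO libraries were above the Ctrl libraries, at counts of 53 to 83 against 25 to 42. The mean went from 0.303 ± 0.0635 CPM to 0.620 ± 0.164 CPM (SD, n = 3 each). The log2 fold change of 1.03 (SE 0.492) did not pass (adjusted p = 0.870, edgeR).

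*Msh4* and *Msh5* encode the partners that hold crossover intermediates together. *Msh4* was at 0.868, 0.727 and 0.408 CPM in Ctrl and at 1.51, 1.39 and 0.699 CPM in TKO. TKO replicate 3 fell within the range of the Ctrl libraries, and the log2 fold change was 0.85 (SE 0.470, adjusted p = 0.962, edgeR). *Msh4* shares 125 exon bases with a small nucleolar RNA gene on the other strand. *Msh5* was at 3.97, 2.52 and 3.04 CPM in Ctrl and at 3.82, 3.57 and 3.29 CPM in TKO, with a log2 fold change of 0.16 (SE 0.287).

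*Spo11* (ENSMUSG00000005883, chr2:172819493-172835369, plus strand), the nuclease that opens meiotic recombination, was at 24.1, 22.0 and 34.3 CPM in Ctrl and at 33.0, 30.2 and 29.5 CPM in TKO. The TKO libraries lay within the Ctrl range, and the log2 fold change was 0.20 (SE 0.184). *Mei4*, needed for the breaks SPO11 makes, and *Meiob*, which binds single-stranded DNA with SPATA22, had log2 fold changes of -0.11 (SE 0.388) and -0.41 (SE 0.900). *Mei1*, also needed for break formation, was not tested, and had 12, 4 and 12 counts in Ctrl and 0, 3 and 2 in TKO. All its TKO counts were at or under the limit of 3.

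**Figure D3:**
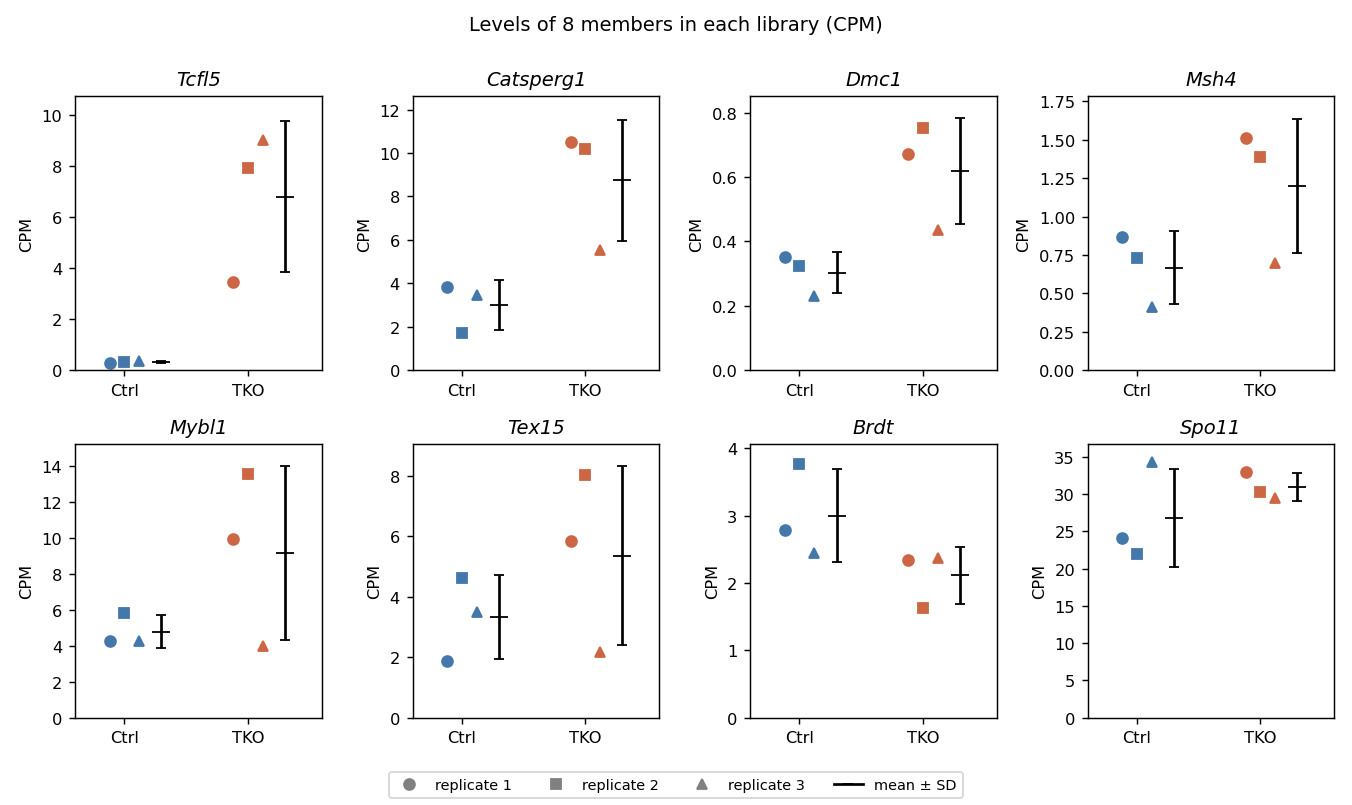
Levels in CPM (y axis, from 0) of 8 germline genes in each Ctrl (blue) and TKO (orange) library, with symbols for replicates 1 to 3 and black bars for the mean ± SD. The TKO libraries lie above the Ctrl libraries for *Tcfl5*, *Catsperg1* and *Dmc1* and below them for *Brdt*, while for *Msh4*, *Mybl1* and *Tex15* TKO replicates 1 and 2 are the high ones and TKO replicate 3 lies among or below the Ctrl libraries.

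Of the 7 synaptonemal complex genes, 2 passed the filter. *Syce2* (ENSMUSG00000003824, chr8:85598740-85614853, plus strand), of the central element, was at 14.9, 13.4 and 9.54 CPM in Ctrl and at 12.6, 14.4 and 12 CPM in TKO. The groups overlapped, and the log2 fold change was 0.04 (SE 0.202). *Syce2* shares 337 exon bases with *Gcdh*, a mitochondrial dehydrogenase gene on the other strand. *Sycp2*, of the axial element, had 8, 25 and 15 counts in Ctrl and 24, 30 and 5 in TKO, and a log2 fold change of 0.31 (SE 0.906).

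The remaining synaptonemal complex genes were counted in some libraries and at 0 in others of the same group. *Sycp1*, which encodes the transverse filament, had 17, 0 and 19 counts in Ctrl and 0, 1 and 0 in TKO. *Sycp3*, the partner of *Sycp2*, had 0, 6 and 0 counts in Ctrl and 31, 24 and 0 in TKO. *Syce1* and *Tex12*, of the central element, reached at most 15 counts. No direction is given for any of these, since their libraries disagreed within a group.

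The HORMA-domain genes *Hormad1* and *Hormad2* encode proteins of unsynapsed chromosome axes. *Hormad1* had 9, 2 and 5 counts in Ctrl and 0, 0 and 0 in TKO. The 0 counts allow up to 0.0255, 0.0272 and 0.0247 CPM, and Ctrl replicate 2, at 0.0155 CPM, lay under these limits. *Hormad2* had 22, 3 and 16 counts in Ctrl and 2, 0 and 21 in TKO, and its log2 fold change of -1.02 had an SE of 1.40. No direction is given for either gene.

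Of the bridge and surface genes, *Tex15* encodes a germ cell protein of transposon silencing and *Tex14* a component of the bridges that join germ cells. *Tex15* was at 1.88, 4.63 and 3.50 CPM in Ctrl and at 5.86, 8.03 and 2.17 CPM in TKO. As with *Mybl1*, TKO replicates 1 and 2 were above the Ctrl libraries and TKO replicate 3 was not, and the log2 fold change was 0.68 (SE 0.478). *Tex14* was at 0.616, 0.371 and 0.714 CPM in Ctrl and at 0.748, 0.643 and 0.452 CPM in TKO, a log2 fold change of 0.12 (SE 0.467). *Tex101*, a surface protein of germ cells, had 64 counts in TKO replicate 3 and at most 4 in any other library, and this was the highest count among the 18 untested members.

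Among the RNA-binding genes, *Ythdc2* and *Meioc* encode partners that carry germ cells from mitosis into meiosis. *Ythdc2* (ENSMUSG00000034653, chr18:44960813-45022791, plus strand) was at 22.0, 28.2 and 26.2 CPM in Ctrl and at 30.8, 31.7 and 22.5 CPM in TKO, a log2 fold change of 0.15 (SE 0.178). *Meioc* had 0, 24 and 22 counts in Ctrl and 18, 26 and 49 in TKO, with a log2 fold change of 1.01 whose SE was 1.10. *Meioc* reached the level of the low-count filter in every library but Ctrl replicate 1, where it had 0 counts. *Dazl*, a translational regulator of germ cells, had 8, 2 and 16 counts in Ctrl and 0, 20 and 23 in TKO, and a log2 fold change of 0.60 (SE 1.34). *Boll*, of the same family, and *Adad1* had at most 21 counts in any library and were not tested. The carrier *Slc25a31*, which exchanges ADP and ATP in sperm mitochondria, had 0 counts in all Ctrl libraries and 5, 0 and 4 in TKO.

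The members differed widely in level. Per kilobase of annotated exon, *Spo11* was the highest in Ctrl, at 6.80 CPM per kb, followed by *Syce2* at 5.0 and *Ythdc2* at 2.7. The Ctrl libraries of *Spo11* (5.58 to 8.71 CPM per kb) and *Syce2* (3.77 to 5.90) overlapped, and those of *Ythdc2* (2.33 to 2.99) lay below both. Next came *Mybl1* at 0.615, *Brdt* at 0.570 and *Msh5* at 0.555 CPM per kb, whose libraries overlapped. The median over 20167 tested genes with a known exon length was 1.62 CPM per kb, and *Krt14*, a keratin of basal keratinocytes, was at 3070. *Spo11*, *Syce2* and *Ythdc2* were thus above the middle of the expressed genes, and the other 37 members were below it. *Tcfl5* ranked 18 of 40 in Ctrl, at 0.0378 CPM per kb, and 6 in TKO, at 0.826. *Catsperg1* went from rank 8 (0.427 CPM per kb) to rank 4 (1.24).

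Summed over all 40 genes, the level was 88.9, 89.6 and 97.1 CPM in Ctrl and 123, 131 and 99.8 CPM in TKO. *Spo11*, *Ythdc2* and *Syce2* made up 70.7% of the sum in Ctrl and 61.1% in TKO. The other 37 genes summed to 27.9, 26.0 and 27.0 CPM in Ctrl and to 46.9, 55.1 and 35.9 CPM in TKO, or 27.0 ± 0.934 against 46.0 ± 9.62 CPM (SD, n = 3 each). The mean differences behind this were 6.49 CPM for *Tcfl5*, 5.74 for *Catsperg1*, 4.41 for *Mybl1* and 2.02 for *Tex15*.

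TKO replicate 3 stood apart from the other TKO libraries for several members. With it left out, 28 members passed the filter and the remaining TKO libraries were above every Ctrl library for 9 of them, namely *Sycp2*, *Sycp3*, *Dmc1*, *Msh4*, *Tex15*, *Ythdc2*, *Tcfl5*, *Mybl1* and *Catsperg1*. They were below every Ctrl library for *Hormad2*, *Mei1* and *Brdt*, although for *Hormad2* the nearest libraries of both groups were at or under the limit of 3 counts. *Sycp3* passed the filter only through the TKO libraries where it was high, and *Hormad2* and *Mei1* only through the Ctrl libraries, so their places in these counts were tied to the filter. Among all 21573 genes tested without this library 14.4% stood above and 14.1% below, so the 3 members below are near the share of all genes. Leaving out any other single library gave 8.47% to 11.9% of all genes above, so the share was highest without TKO replicate 3. *Tcfl5* went the other way, with TKO replicate 3 the highest of all.

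A list of 25 other meiotic prophase genes was read alongside the members. Of these, 18 were tested, 0 were called by edgeR and 5 were called higher by DESeq2 on the same genes, of which *Iho1* was lost in its default workflow (adjusted p = 0.0560), with 5 higher and 0 lower at an unadjusted p below 0.05. In 8 of the 18 the TKO libraries all exceeded the Ctrl libraries, and in 0 they all fell short, beside 6.35% and 5.11% of all tested genes. The median log2 fold change was 0.52, with 14 positive and 4 negative. *Shoc1* passed the low-count filter only through the TKO libraries, where it was high, so these counts and the median lean upward by selection. It is among the 8 separated genes, the 5 called by DESeq2 and the 5 at an unadjusted p below 0.05. *M1ap* fell short of the filter level in Ctrl replicate 1 only. The 6 separated genes with the largest fold changes are given here.

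*Six6os1* (ENSMUSG00000021098, chr12:72926970-72987548, minus strand), which encodes a synaptonemal central element protein, was at 0.252, 0.395 and 0.371 CPM in Ctrl and at 2.64, 7.41 and 1.61 CPM in TKO. The groups were well apart, with a wide spread within TKO. The log2 fold change was 3.51 (SE 0.589), with an adjusted p of 0.0827 in edgeR and 1.99e-08 in DESeq2. This fold change ran from 2.64 to 3.88 on the log2 scale when single libraries were left out. It shares 192 exon bases with *Six6* on the other strand. *Shoc1*, a crossover gene, had 0, 0 and 2 counts in Ctrl and 29, 77 and 33 in TKO, which made it at least 14.9-fold higher against a floor of 3 counts per library (adjusted p = 0.182 in edgeR and 0.00312 in DESeq2).

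*M1ap*, needed for male meiosis, was at 0.0707, 0.170 and 0.362 CPM in Ctrl and at 1.24, 1.37 and 1.13 CPM in TKO, a log2 fold change of 2.62 (SE 0.589, adjusted p = 0.212 in edgeR and 0.00236 in DESeq2). With single libraries left out the *M1ap* value ran from 2.23 to 3.34. *Iho1*, which acts with MEI4 in break formation, was at 0.283, 0.534 and 0.575 CPM in Ctrl and at 1.47, 1.24 and 1.46 CPM in TKO, a log2 fold change of 1.58 (SE 0.425, adjusted p = 0.342 in edgeR and 0.0394 in DESeq2). *Zcwpw1*, a reader of the histone marks that PRDM9 writes at recombination sites, was at 2.62, 3.18 and 2.78 CPM in Ctrl and at 5.93, 8.85 and 3.82 CPM in TKO, a log2 fold change of 1.12 (SE 0.329, adjusted p = 0.443 in edgeR and 0.0463 in DESeq2). In TKO the libraries of *M1ap* and *Iho1* lay close together. *Brme1*, a recombination partner of BRCA2, was at 0.777, 0.782 and 0.770 CPM in Ctrl and at 1.19, 1.69 and 1.14 CPM in TKO, and had a log2 fold change of 0.79 (SE 0.373, adjusted p = 0.861, edgeR).

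In a further list of sperm genes, apart from the members, no tested gene passed. Of 25 genes for the remaining CatSper subunits, protamines, the acrosome and other sperm structures, 8 were tested. Of these 8, 0 were called by edgeR or DESeq2, 0 had an unadjusted p below 0.05 in either direction, and 0 separated the groups. Their median log2 fold change was -0.05.

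Among 13 genes of germ cell identity, 7 were tested, 0 were called by edgeR and 1 by DESeq2 on the same genes, *Ddx4*, which was also the 1 gene at an unadjusted p below 0.05. *Ddx4* (ENSMUSG00000021758, chr13:112734867-112789009, minus strand), the germ cell RNA helicase also known as Vasa, was at 0.0606, 0.0619 and 0.0928 CPM in Ctrl and at 0.433, 0.525 and 0.378 CPM in TKO. The counts were 6 to 10 in Ctrl and 46 to 58 in TKO, so *Ddx4* passed the filter only through TKO, with a log2 fold change of 2.62 (SE 0.657, adjusted p = 0.296 in edgeR, 0.0427 in DESeq2 on the same genes and 0.0751 in its default workflow). The median of the list was 0.15.

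**Figure D4:**
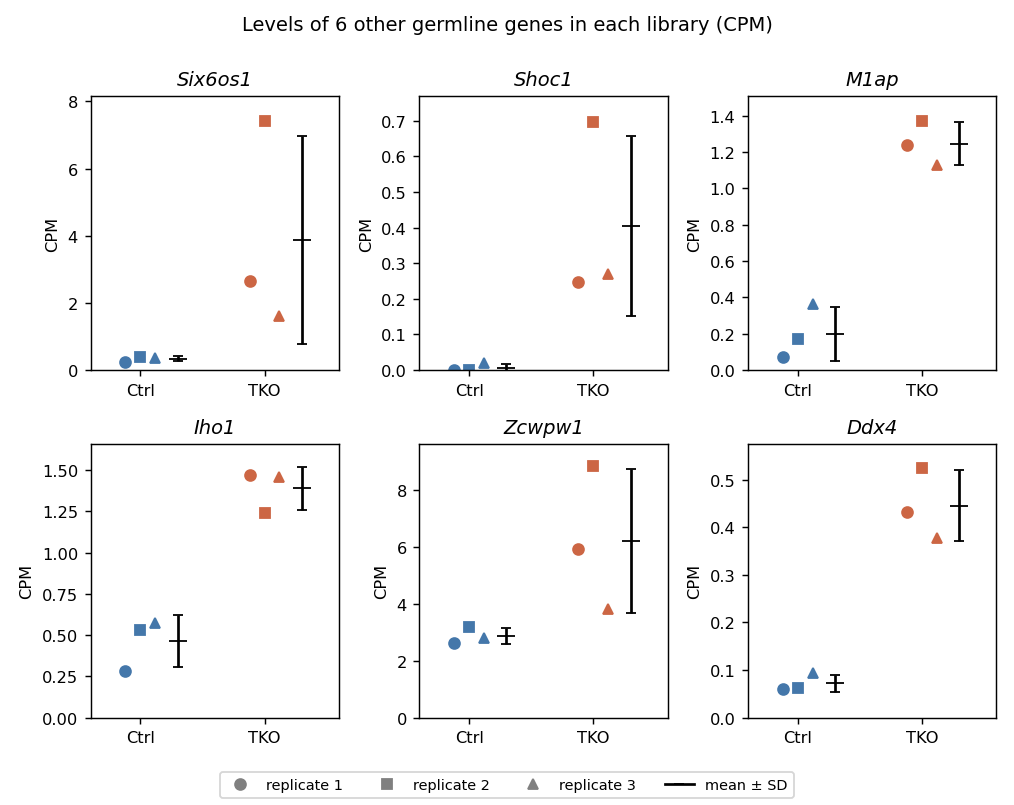
Levels in CPM (y axis, from 0) of 5 other meiotic prophase genes and *Ddx4* in each Ctrl (blue) and TKO (orange) library, with symbols for replicates 1 to 3 and black bars for the mean ± SD. In each of the 6 panels the 3 TKO libraries lie above the 3 Ctrl libraries, all under 10 CPM.

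Of 11 genes for PRC1.6 subunits and other repressors of germline genes, all were tested and 0 were called by edgeR or DESeq2, with a median log2 fold change of 0.13 and 1 at an unadjusted p below 0.05. That 1, which also separated the groups, was the DNA methyltransferase *Dnmt3b*, at 16.9, 14.2 and 16.7 CPM in Ctrl and at 23.9, 27.4 and 17.8 CPM in TKO. Its log2 fold change was 0.53 (SE 0.186, adjusted p = 0.658, edgeR).

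Promoters were read because several members are germline genes of the kind that E2F6 and MGA complexes bind. A RefSeq table held 38 windows of 250 bases before the start for 32 of the 40 members. CACGTG, the E-box, which reads the same on both strands, was found in 11 windows (28.9%), beside 6.02% of all 32851 windows. GGCGGGA, on either strand, was found in 7 (18.4%), beside 9.75%. By gene these are 10 of 32 members (31.2%, all genes 6.86%) and 6 of 32 (18.8%, all genes 11%), with 3 holding both. The median number of CpG was 12.5 in members and 6.0 in all windows.

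The windows of the members whose groups separated are set beside that of *Hormad1*, which holds both motifs. *Catsperg1* has another window in the table, at a start inside the gene, which also holds neither motif and is not shown. Each was cut back to the bases outside annotated exons, and capitals mark CACGTG or GGCGGGA.
*Brdt*, chr5:107478810-107479023, plus strand: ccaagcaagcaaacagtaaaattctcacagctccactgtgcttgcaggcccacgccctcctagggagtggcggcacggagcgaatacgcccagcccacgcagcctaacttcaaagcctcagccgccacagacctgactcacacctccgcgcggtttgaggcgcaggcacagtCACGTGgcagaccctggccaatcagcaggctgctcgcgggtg
*Dmc1*, chr15:79489352-79489560, minus strand: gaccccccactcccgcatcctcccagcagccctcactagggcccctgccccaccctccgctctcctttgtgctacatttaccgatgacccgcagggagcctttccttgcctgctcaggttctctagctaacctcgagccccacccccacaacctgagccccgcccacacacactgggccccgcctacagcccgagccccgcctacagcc
*Catsperg1*, chr7:28913461-28913708, minus strand: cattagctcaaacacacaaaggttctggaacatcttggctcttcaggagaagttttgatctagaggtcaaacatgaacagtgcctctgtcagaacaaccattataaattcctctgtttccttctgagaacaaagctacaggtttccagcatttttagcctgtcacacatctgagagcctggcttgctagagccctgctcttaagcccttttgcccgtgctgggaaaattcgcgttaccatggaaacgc
*Hormad1*, chr3:95466738-95466937, plus strand: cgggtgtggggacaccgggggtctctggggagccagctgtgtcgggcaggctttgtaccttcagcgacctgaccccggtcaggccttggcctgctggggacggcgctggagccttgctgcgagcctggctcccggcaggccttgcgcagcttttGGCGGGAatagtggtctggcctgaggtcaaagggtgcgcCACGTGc
Neither motif was found in the window of *Dmc1* or in either window of *Catsperg1*. Of the 6 members with GGCGGGA 4 passed the filter, with log2 fold changes of 4.44 for *Tcfl5*, 0.16 for *Msh5*, 0.12 for *Tex14* and 0.04 for *Syce2*. Of the 10 members with CACGTG 3 passed the filter, with log2 fold changes of 0.04 for *Syce2*, -0.05 for *Catsperd* and -0.51 for *Brdt*, none of which passed the test. A match is a description of letters and not a bound site.

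The labelled cell type was checked against markers. The 8 basal keratinocyte markers summed to 24300, 24100 and 18100 CPM in Ctrl and to 15000, 16800 and 19200 CPM in TKO, with *Krt5* the most abundant and none at 0. *Krt15*, a keratin of basal cells, separated downward, at 2720, 2580 and 2090 CPM in Ctrl and at 901, 792 and 1570 CPM in TKO, with a log2 fold change of -1.18 (SE 0.256, adjusted p = 0.185, edgeR). *Itgb4*, an integrin of the basement membrane contact, separated upward by less than the rounding of its values, at 464, 428 and 479 CPM in Ctrl and at 479, 620 and 516 CPM in TKO. The 5 matched suprabasal markers, led by *Krt1*, summed to 18600, 18200 and 20100 CPM in Ctrl and to 16300, 12300 and 13100 CPM in TKO, and *Krt1* and *Krt10*, the keratin pair of differentiating cells, separated downward. *Krt1* was at 9970, 9780 and 10100 CPM in Ctrl and at 8520, 6100 and 6300 CPM in TKO, and *Krt10* at 8070, 7870 and 9480 CPM in Ctrl and at 7260, 5690 and 6090 CPM in TKO. Of these 13 keratinocyte genes 0 were called by edgeR and 1, *Krt15*, was called lower by DESeq2, with 3 lower and 0 higher at an unadjusted p below 0.05.

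Germ cell markers were low in both groups. The 6 genes summed to 2.53, 1.25 and 2.01 CPM in Ctrl and to 2.26, 1.68 and 2.14 CPM in TKO, with *Dnd1* the most abundant, *Ddx4* the 1 gene that separated the groups and *Nanos2* at or under 3 counts in every library. The summed levels of the groups overlapped.

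Skeletal muscle markers moved with the groups. The 8 genes summed to 4.22, 11.5 and 7.76 CPM in Ctrl and to 34.9, 37.2 and 36.1 CPM in TKO, with *Ttn* the most abundant. *Myh3*, *Ttn* and *Actn2*, for proteins of the contractile apparatus, separated upward. *Myh3* was at 0.656, 0.758 and 0.501 CPM in Ctrl and at 3.87, 3.46 and 4.37 CPM in TKO, and was called by edgeR (log2 fold change 2.61, SE 0.336, adjusted p = 0.0211). The *Myh3* call held in 1 of the 6 fits that left out single libraries (adjusted p from 0.0381 to 0.122, edgeR). Across them its log2 fold change ran from 2.46 to 2.75. With sex as a factor the call was lost (adjusted p = 0.0533, edgeR). *Ttn* was at 1.33, 7.41 and 3.90 CPM in Ctrl and at 26.1, 22.1 and 20.9 CPM in TKO, and *Actn2* at 0.636, 0.727 and 0.993 CPM in Ctrl and at 2.95, 4.96 and 2.75 CPM in TKO. DESeq2 called 4 of the 8 higher, these 3 and *Acta1*, and 4 were higher at an unadjusted p below 0.05 in edgeR. All 8 had positive log2 fold changes. *Myod1*, with 3 counts in Ctrl replicate 3, fell short of the level of the low-count filter in that library only. *Myog*, a factor that defines muscle cells, was at 0.283, 0.813 and 0.315 CPM in Ctrl and at 0.119, 1.44 and 1.66 CPM in TKO, and *Myod1*, another, was at 0.151, 0.155 and 0.0278 CPM in Ctrl and at 0.136, 0.353 and 0.197 CPM in TKO, with overlapping groups for both. The part of these genes in the germline values was not tested. The 6 fibroblast markers, led by *Col1a1*, summed to 1200, 3360 and 3010 CPM in Ctrl and to 2160, 2560 and 2810 CPM in TKO, and 0 separated the groups. The 7 immune markers, led by *Csf1r*, were lowest in TKO replicate 1 (6.34 CPM) and highest in TKO replicate 2 (71.7 CPM), the 5 endothelial markers, led by *Cdh5*, ranged from 24.5 to 60.3 CPM, and the 6 melanocyte markers, led by *Mitf*, from 6.66 to 13.7 CPM, and in these 3 lists the summed levels of the groups overlapped. *Cd74* of the immune list separated upward, at 1.55, 1.59 and 1.32 CPM in Ctrl and at 1.78, 2.25 and 3.08 CPM in TKO. *Mlana* of the melanocyte list did so too, at 0.141, 0.0155 and 0.167 CPM in Ctrl and at 0.994, 1.53 and 0.304 CPM in TKO, with a log2 fold change of 3.13 (SE 0.856, adjusted p = 0.360 in edgeR and 0.0206 in DESeq2). *Mlana* fell short of the level of the low-count filter only in Ctrl replicate 2, where it had 2 counts.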

How the data were processed

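Per the labels and the study's methods, rRNA-depleted total RNA was sequenced and the reads were trimmed with fastp and aligned with STAR. The authors deposited raw counts per Ensembl gene, 1 column per library, with no normalization and no pooling. The labels name GRCm38 and the study's methods GRCm39, and the counting program, annotation and strand setting are not given in the sources used here, so reads of overlapping genes may be shared. Of 55536 identifiers, 51477 were found in GENCODE vM39 (GRCm39), which gave symbols, exon lengths and positions. Identifiers outside it held 5.91% to 13.6% of the counts of a library. *Six6os1* and *Gm960* were matched through synonyms, and *Lor* was not matched. Columns of other samples numbered 0.

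Counts were analysed with edgeR 4.0.16 in R 4.3.3. Genes passing filterByExpr (minimum count 10, minimum total 15) were scaled by TMM and tested by glmQLFit (robust) and glmQLFTest, and p-values were adjusted by Benjamini-Hochberg over 20622 genes. The biological coefficient of variation was 36.5%. DESeq2 1.42.0 and the other alternatives are described in the closing section. Scripts were tested on simulated counts. No libraries agreed within sampling noise. The labels do not say that libraries are separate animals, so p-values measure the spread between these libraries. Members, gene lists and tests were chosen with earlier results of these data known. Values in every library are given for members called, separated, at an unadjusted p under 0.05 or among the 5 highest per length in Ctrl, and for up to 6 separated genes of each other list, and the remaining members shown were chosen after their values were seen. Promoter sequences came from a RefSeq table of GRCm38.p6 and were matched exactly to GRCm39. Figures were drawn with matplotlib 3.10.9.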

Additional observations from a re-analysis of the deposited data

How the results depend on the processing

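Over all genes, the 27 called higher by edgeR became 193 with DESeq2 on the same genes, 198 with its default workflow, 213 with no low-count filter, 11 at an adjusted p under 0.01, and 7 to 65 when single libraries were left out. Those called lower, 0 in edgeR, became 21, 29 and 22 with DESeq2 on the same genes, its default workflow and no filter, and 0 to 16 when single libraries were left out. Of the germline members, 2 were called higher with either DESeq2 workflow or no filter, and 0 to 1 when single libraries were left out, and 0 were called lower in every fit. Members standing above in every TKO library numbered 3 to 9 when single libraries were left out, the 9 without TKO replicate 3, beside 8.47% to 14.4% of all genes. Those standing below numbered 3 of 39 with no filter, beside 4.0% of all genes, and 1 to 4 of 25 to 28 when single libraries were left out, the 4 without Ctrl replicate 2, beside 8.45% to 14.1% of all genes. The median log2 fold change of members ran from 0.06 to 0.32 over these fits. *Syce2*, at 0.04, ran from -0.13 (without Ctrl replicate 3) to 0.18 (without Ctrl replicate 1), and was at -0.04 without TKO replicate 2. The cause of these changes was not tested.

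The labels do not say that a replicate number marks a shared litter or day, although the library codes of same-numbered libraries are consecutive, and the numbers were not taken as pairs. Same-numbered libraries had deviations correlated at 0.168, 0.0873 and 0.127, beside -0.161 to 0.0398 for different numbers, and each library correlated best with its own number. In a fit with a replicate block, 44 genes were called higher and 1 lower, the called member was still *Tcfl5*, and *Six6os1* passed (adjusted p = 0.0389, edgeR). Size factors by RLE, sex as a factor, fits without robust estimation, a minimum mean CPM and no fold threshold changed no count of called members. The low-count filter left 18 of the 40 members untested, and 39 were tested without it.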
